A study of Mus musculus with 18 samples.

Results

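The hepatic acute phase proteins are the plasma proteins whose synthesis in the liver climbs within hours of infection or injury. The 10 genes described here are *Saa1*, *Saa2*, *Saa3*, *Saa4*, *Crp*, *Orm1*, *Orm2*, *Lcn2*, *Hp* and *Hamp*, chosen by name among the 51826 genes of the liver count table, which lists all 10. Read counts came from 3 RepB-/- and 3 WT liver libraries, with 3 RepB-/- and 3 WT libraries of mouse embryonic fibroblasts (MEFs) beside them. RepB-/- mice carry a germline deletion of repeat B, the cytosine-rich stretch of the *Xist* RNA, made with CRISPR/Cas9; WT mice carry intact *Xist*, and the letters B and W of the library names were read as these genotypes. The mice bought for the study were females of the outbred ICR stock, 8 weeks old, and its text keeps the name RepB-/- for females and RepB-/Y for males; the age and sex of the mouse behind each library are not given in the labels. The MEF libraries are labelled both as primary MEFs and as tail, and nothing in the labels says that replicates came from separate animals or cultures, so the p-values measure only the spread between these libraries.

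In hepatocytes the acute phase genes are switched on mainly by interleukin 6 (IL-6), which acts through its receptor chain gp130 (*Il6st*), the kinases JAK1 and JAK2 and the transcription factor STAT3. Interleukin 1 and NF-kB, together with C/EBP-beta and C/EBP-delta (*Cebpb*, *Cebpd*), drive the serum amyloid A genes and the lipocalin gene. Hepcidin (*Hamp*) is also governed by bone morphogenetic proteins acting through SMAD factors, which report iron stores, and is held down when red cell production is high. In the mouse, *Saa1* and *Saa2* respond strongly to inflammation and *Crp* only weakly, unlike in humans.

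The genes lie on 5 chromosomes. In the GRCm38 coordinates of the liver table, the serum amyloid A genes form a cluster on chromosome 7, with *Saa3* at chr7:46711998-46715700, *Saa4* at chr7:46727998-46732603, *Saa1* at chr7:46740497-46742980 and *Saa2* on the opposite strand at chr7:46751790-46754313. *Hamp* (chr7:30942368-30944032) and its copy *Hamp2* (chr7:30922372-30924681) lie on the same chromosome. *Orm1* (chr4:63344560-63348163), *Orm3* (chr4:63356162-63359511) and *Orm2* (chr4:63362449-63365878) stand side by side. *Lcn2* is at chr2:32384633-32388252, *Hp* at chr8:109575128-109579172 and *Crp* at chr1:172698055-172833031.

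The promoters of the serum amyloid A and hepcidin genes are shown because the results turn on *Saa1*, *Saa2* and *Saa3*, and on *Hamp* and *Hamp2*, which were near 0 in the same livers. RefSeq promoters (GRCm38.p6) were found for 8 of the 10 genes, all but *Orm1* and *Hp*. The window runs from 250 to 51 bases before the transcription start that the RefSeq table uses, 5′ to 3′ on the strand of the gene. That start lies inside the outer gene bounds of the liver table for *Saa2*, *Saa3*, *Lcn2* and *Hamp2*, and by a few bases for *Hamp* and *Crp*. The windows of *Hamp2* and *Lcn2* fall within those bounds, that of *Hamp2* in an intron of its longest transcript. Capitals mark matches on either strand to the C/EBP motif TTNNGNAA, the STAT motif TTCNNNGAA or the BMP response motif GGCGCC. The windows are chr7:46743031-46743230 (minus strand) for *Saa1*, chr7:46751583-46751782 (plus) for *Saa2*, chr7:46715727-46715926 (minus) for *Saa3*, chr7:30944080-30944279 (minus) for *Hamp* and chr7:30924232-30924431 (minus) for *Hamp2*.
Saa1: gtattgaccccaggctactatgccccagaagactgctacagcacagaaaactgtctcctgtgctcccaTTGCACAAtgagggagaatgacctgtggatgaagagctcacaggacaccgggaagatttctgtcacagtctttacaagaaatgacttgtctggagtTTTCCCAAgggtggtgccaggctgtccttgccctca
Saa2: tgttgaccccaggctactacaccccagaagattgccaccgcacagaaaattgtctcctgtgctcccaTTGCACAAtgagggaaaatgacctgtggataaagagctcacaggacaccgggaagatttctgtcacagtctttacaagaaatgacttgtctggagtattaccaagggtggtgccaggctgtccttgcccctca
Saa3: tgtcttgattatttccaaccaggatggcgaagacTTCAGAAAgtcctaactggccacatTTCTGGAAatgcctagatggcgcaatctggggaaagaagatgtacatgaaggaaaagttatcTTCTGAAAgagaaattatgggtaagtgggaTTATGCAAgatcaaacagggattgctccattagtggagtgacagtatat
Hamp: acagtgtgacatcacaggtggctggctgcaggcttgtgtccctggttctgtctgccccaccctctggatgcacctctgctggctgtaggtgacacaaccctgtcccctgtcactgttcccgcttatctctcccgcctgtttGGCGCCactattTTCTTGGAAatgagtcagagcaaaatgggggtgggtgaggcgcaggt
Hamp2: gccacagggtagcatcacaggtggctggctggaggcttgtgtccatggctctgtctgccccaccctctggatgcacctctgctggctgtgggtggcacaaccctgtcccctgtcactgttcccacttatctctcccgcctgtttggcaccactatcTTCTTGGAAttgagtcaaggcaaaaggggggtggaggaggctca

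The *Saa1* and *Saa2* windows were 93.5% identical in a global alignment (188 of 201 positions), and *Saa3* shared 49.1% with *Saa1*, near the 44.1% between *Saa1* and *Hamp*. The C/EBP motif was in 7 of the 8 windows, all but that of *Hamp*, and in 32.4% of all 27025 promoter windows of that length. *Saa3* held 4 copies, at -216, -191, -129 and -99, while *Saa1* held 2 and *Saa2* held 1. The STAT motif was in the *Hamp* window at -97 and in the *Hamp2* window at -94, and in 5.89% of all windows. The BMP response motif was in the *Hamp* window at -109 and not in that of *Hamp2*, although the pair were 88.2% identical, and in 7.11% of all windows. The NF-kB motif was in 0 of the 8 windows and 2.99% of all. A match describes letters and not a bound site.

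Liver libraries held 37682201 to 51542709 counts and MEF libraries 11540344 to 20587556. Levels are given as CPM, the read counts scaled to library totals that edgeR had adjusted by its TMM factors. Replicate 1 of both genotypes stood apart in liver: *Afp*, the fetal counterpart of albumin, was at 506 CPM in RepB-/- and 368 CPM in WT replicate 1 and between 2.79 and 6.04 CPM in the other 4 livers, and *H19*, a fetal growth RNA, was at 3874 and 3537 CPM in those 2 and at most 12.4 CPM elsewhere. RepB-/- replicate 2 gave 4342 counts on 4 Y-linked genes and 4 on *Xist*, against at most 1 and at least 14494 in the other livers. These are the counts of a male library, which goes against the name RepB-/- as the study uses it, so RepB-/- replicate 2 stands here for the library labelled so, and the *Hamp* result is also given without it. Hepatocyte markers were high in all 6 livers, with *Alb* at 81840 to 163082 CPM, and near 0 in MEFs, where the 12 markers summed to at most 4.16 CPM.

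**Figure D1:**
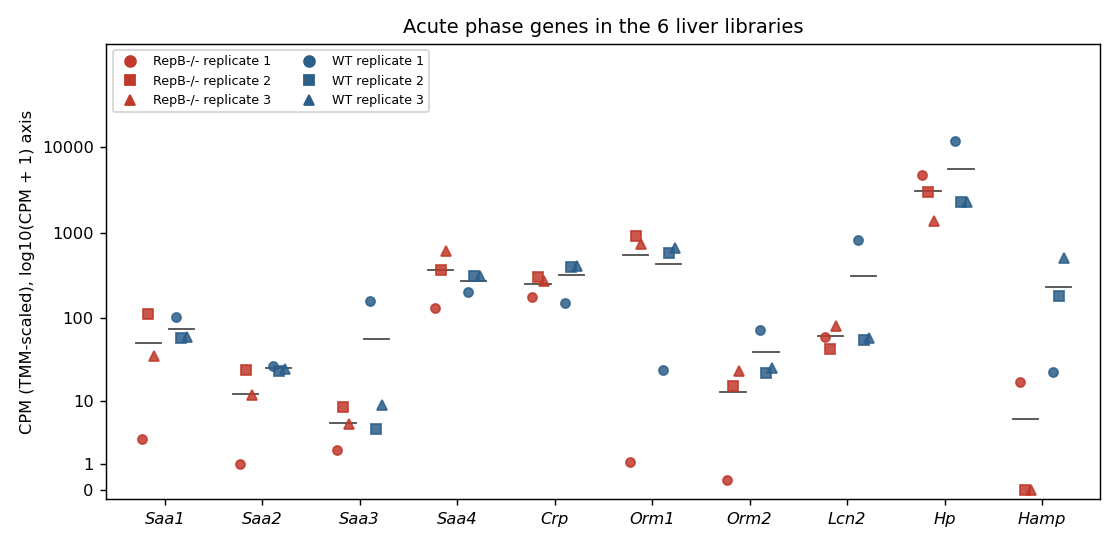
Level of the 10 acute phase genes in each liver library, in TMM-scaled CPM on a log10(CPM + 1) axis; symbols give the replicate number, colours the genotype and bars the group mean of 3. *Saa2*, *Saa3*, *Orm2*, *Lcn2* and *Hp* had their highest point in WT replicate 1. *Saa1*, *Saa2*, *Saa3*, *Saa4*, *Orm1* and *Orm2* had their lowest in RepB-/- replicate 1, and *Hamp* was at 0 in RepB-/- replicates 2 and 3.

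The question in liver was whether loss of repeat B moves these genes. All 10 passed the filter on low counts, and the edgeR quasi-likelihood test called 0 of 10 at an adjusted p under 0.05, where 0.0373% of the 16080 genes tested were called. DESeq2 also called 0 of 10, with no p for *Lcn2* and *Saa3*, and 1 of 10, *Saa3*, had an unadjusted p under 0.05 in edgeR. The median log2 fold change was -0.94 over the 10 genes and 0.01 over all genes tested, with the replicate 1 libraries included. In replicates 2 and 3 alone the values were 0.33 for *Saa1*, 0.034 for *Saa3*, 0.64 for *Saa4*, 0.40 for *Orm1* and 0.13 for *Lcn2*. They were -0.44 for *Saa2*, -0.30 for *Orm2*, -0.063 for *Hp*, -0.48 for *Crp* and, with 0 counts in RepB-/-, -16.83 for *Hamp*. The biological coefficient of variation in liver was 51.2%, and in simulated livers of this depth and spread the test recovered 0% of genes changed 4-fold.

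The serum amyloid A proteins are apolipoproteins carried on high-density lipoprotein. *Saa1* was at 2.98, 113 and 35.7 CPM in RepB-/- replicates 1, 2 and 3 and at 103, 58.3 and 60.8 CPM in WT. *Saa2* was at 1.04, 23.9 and 11.8 CPM in RepB-/- and at 27.1, 23.5 and 25.2 CPM in WT. In both genes RepB-/- replicate 1 was the low library, at least 11.3-fold below every other liver, and the genotypes overlapped. The log2 fold change, RepB-/- minus WT, was -0.55 ± 1.03 (SE, n = 3 per genotype) for *Saa1* and -1.04 ± 0.89 for *Saa2*, both with an adjusted p of 1.00 by edgeR. In replicates 2 and 3 alone the log2 fold change of *Saa1* was 0.33. That of *Saa2* was -0.49 without RepB-/- replicate 1 and -1.98 without RepB-/- replicate 2. Counts may be divided unevenly between this pair, since 8.96% of the 100-base windows of *Saa1* transcripts recur unchanged in *Saa2*.

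*Saa3*, the member made by macrophages and adipocytes as well as liver, was at 1.91, 8.30 and 4.98 CPM in RepB-/- and at 158, 4.21 and 8.82 CPM in WT. WT replicate 1 alone was high, 17.9-fold above the next library, and among the other 5 livers the genotypes overlapped, at 1.91 to 8.30 CPM in RepB-/- and 4.21 and 8.82 CPM in WT. The log2 fold change was -3.49 ± 1.42 (unadjusted p = 0.0451, adjusted p = 1.00, edgeR) and became -0.36 without WT replicate 1. *Saa4*, the constitutive member of the family, was at 133, 364 and 618 CPM in RepB-/- and at 203, 317 and 312 CPM in WT. Its lowest libraries were the replicate 1 of each genotype, its highest RepB-/- replicate 3, and its log2 fold change was 0.42 ± 0.55 with overlapping genotypes.

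C-reactive protein (*Crp*), a pentraxin that binds phosphocholine on damaged cells and microbes, was at 178, 308 and 273 CPM in RepB-/- and at 150, 403 and 411 CPM in WT. Its highest value was 2.74-fold its lowest, the narrowest ratio of the 10 genes, and replicate 1 was again the lowest library in each genotype. The log2 fold change was -0.34 ± 0.45 (adjusted p = 1.00, edgeR).

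The orosomucoids, also called alpha-1-acid glycoproteins, are lipocalins that bind drugs and lipids in plasma. *Orm1* was at 1.16, 921 and 733 CPM in RepB-/- and at 24.5, 588 and 669 CPM in WT, so that replicates 2 and 3 were on average 56.7-fold above replicate 1. The genotype difference was small against that split, at a log2 fold change of 0.37 ± 1.77, and turned to -0.88 with replicate number as a block. *Orm2* was at 0.34, 15.5 and 23.6 CPM in RepB-/- and at 73.1, 22.4 and 25.7 CPM in WT, lowest in RepB-/- replicate 1 and highest in WT replicate 1, with a log2 fold change of -1.62 ± 1.19 and overlapping genotypes. It was -0.87 without WT replicate 1, -1.05 without RepB-/- replicate 1 and -2.34 without RepB-/- replicate 3. Of the 100-base windows of *Orm1* transcripts, 6.95% also occur in *Orm2*.

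Lipocalin 2 (*Lcn2*) withholds iron from bacteria by binding their siderophores, and it is a granule protein of neutrophils as well as a product of stressed hepatocytes. It was at 60.9, 43.5 and 81.8 CPM in RepB-/- and at 827, 56.1 and 58.5 CPM in WT. As with *Saa3*, WT replicate 1 stood alone, 10.1-fold above the next library, and the other 5 values overlapped. The log2 fold change was -2.34 ± 1.10 and became 0.12 without that library. Haptoglobin (*Hp*), which captures free haemoglobin, was at 4774, 3010 and 1366 CPM in RepB-/- and at 11842, 2296 and 2292 CPM in WT. WT replicate 1 was again highest, RepB-/- replicate 3 lowest, and the log2 fold change of -0.84 ± 0.82 became 0.41 without WT replicate 1.

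Of the 25 other positive acute phase genes 10 were highest in WT replicate 1 and 15 in another library, and their summed level there, 51156 CPM, was close to the 50496 CPM of RepB-/- replicate 2. Among the 10, hemopexin (*Hpx*), the haem carrier, was at 11343 CPM there and at 2649 to 6041 CPM in the other livers. The lipopolysaccharide-binding protein (*Lbp*) was at 559 CPM against 153 to 331 CPM, and ceruloplasmin (*Cp*), the copper ferroxidase, at 2411 CPM against 975 to 1351 CPM. The 12 macrophage and Kupffer cell markers summed to 1396 CPM in WT replicate 1 and to 663 to 932 CPM in the other 5. A large part of that difference was 1 gene, *Marco*. This scavenger receptor was at 341 CPM in WT replicate 1 and at 8.24 to 52.7 CPM elsewhere. The Kupffer cell lectin *Clec4f*, at 103 CPM in WT replicate 1, lay within the 69.4 to 146 CPM of the others. The 12 neutrophil and myeloid precursor markers summed to 69.6 CPM in WT replicate 1, 703 CPM in RepB-/- replicate 1 and 9.80 to 20.3 CPM in the other 4. *Lcn2* was at 60.9 CPM in RepB-/- replicate 1. The part of these markers in the *Saa3* and *Lcn2* peaks was not tested, and in whole tissue fewer cells of a type and less RNA per cell cannot be told apart.

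**Figure D2:**
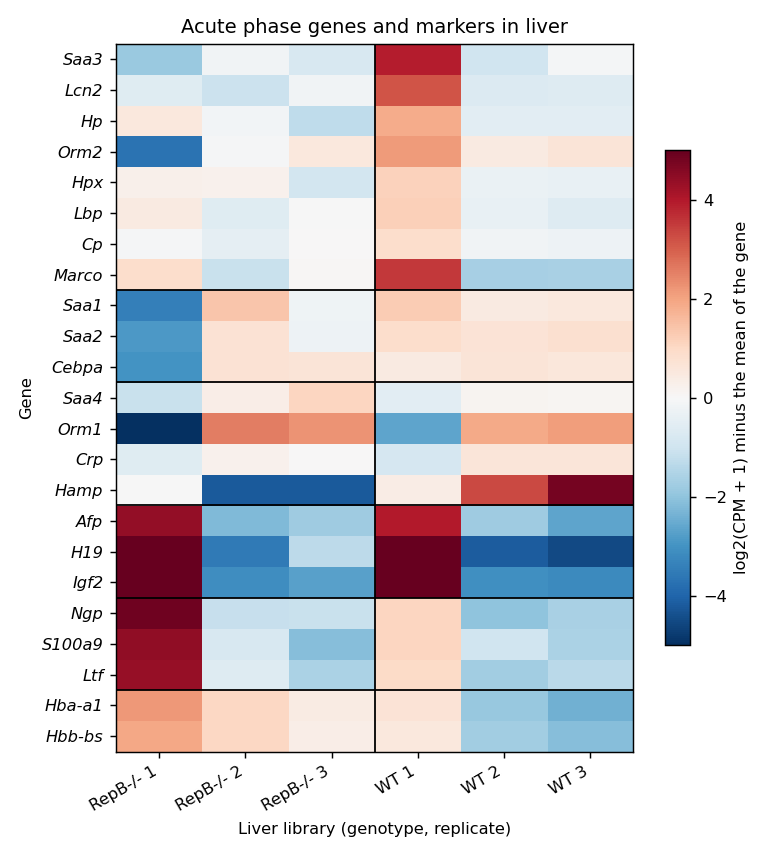
Levels in the 6 liver libraries (columns) of acute phase genes and markers (rows), as log2(CPM + 1) minus the mean of each gene. The blocks, from top to bottom, are genes highest in WT replicate 1; *Saa1*, *Saa2* and *Cebpa*, low in RepB-/- replicate 1; *Saa4*, *Orm1*, *Crp* and *Hamp*; fetal liver genes, high in replicate 1 of both genotypes; neutrophil genes; and globin genes.

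*Cebpa*, the hepatocyte C/EBP factor, was low in RepB-/- replicate 1. *Saa1*, *Saa2*, *Saa3*, *Saa4*, *Orm1* and *Orm2* were lowest in that library, and *Crp*, *Lcn2*, *Hp* and *Hamp* were not. The part of *Cebpa* in these levels rests on 1 library and was not tested. It was at 22.6 CPM in RepB-/- replicate 1 and at 261 to 309 CPM in the other 5 livers. *Cebpb*, the inflammatory C/EBP factor, was at 144, 175 and 176 CPM in RepB-/- and at 105, 49.6 and 51.8 CPM in WT. Every RepB-/- value of *Cebpb* lay above every WT value, and the share of all genes that did so in liver was not counted. The exact permutation test over libraries gave a two-sided p of 0.1, the smallest that 3 against 3 allows. The log2 fold change of 1.26 ± 0.34 did not pass the correction (adjusted p = 1.00 in edgeR and 0.175 in DESeq2).

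Hepcidin (*Hamp*), the peptide hormone that closes the iron exporter ferroportin, had the largest fitted difference of the 10 genes in liver. Its raw counts were 873, 0 and 0 in RepB-/- replicates 1, 2 and 3 and 1029, 7013 and 23849 in WT, which correspond to 17.2, 0 and 0 CPM against 22.9, 181 and 504 CPM. All RepB-/- values lay below all WT values, as for 4.66% of the genes tested, but the replicate 1 libraries of the genotypes were 1.33-fold apart. The difference lay in replicates 2 and 3, where WT averaged 342 CPM and both RepB-/- libraries were at 0, a level at least 3914-fold lower when set against a floor of 3 counts per library. The fitted log2 fold change was -5.36 ± 2.54 (unadjusted p = 0.0744, adjusted p = 1.00, edgeR), and the exact permutation test gave the smallest p it can reach, 0.1. Without RepB-/- replicate 1 the fitted value was -16.31 (adjusted p = 0.489, edgeR) and with replicate number as a block -9.51 (adjusted p = 0.746, edgeR). In replicates 2 and 3 alone the fitted value was -16.83 (adjusted p = 0.0877, edgeR), where 0.0125% of the genes tested were called. None of these fitted values is a bound.

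**Figure D3:**
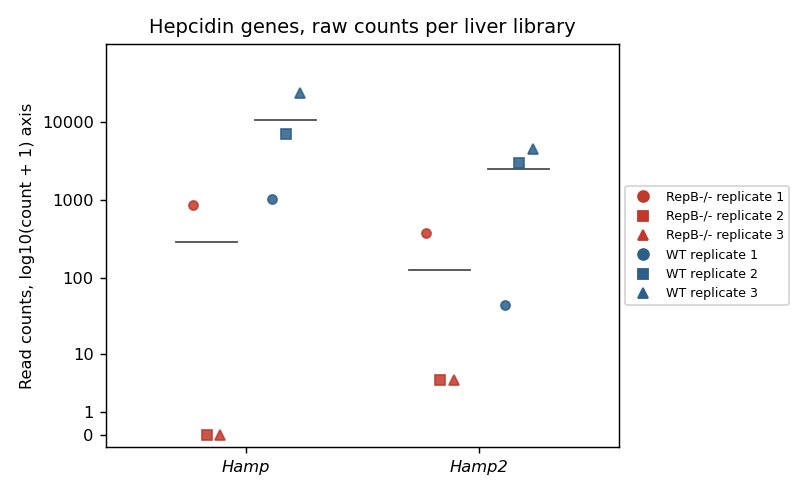
Raw read counts of *Hamp* and *Hamp2* in each liver library, on a log10(count + 1) axis; symbols give the replicate number, colours the genotype and bars the group mean of 3. RepB-/- replicates 2 and 3 held 0 counts of *Hamp* and 4 of *Hamp2* each, below all WT libraries, while RepB-/- replicate 1 held more *Hamp2* than WT replicate 1.

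*Hamp2*, the second mouse hepcidin gene, followed the same libraries. It had 382, 4 and 4 counts in RepB-/- and 45, 3002 and 4520 in WT, so the genotypes overlapped through replicate 1, where RepB-/- was the higher. In replicates 2 and 3 alone, the mean was 882-fold lower in RepB-/- and *Hamp2* was 1 of the 2 genes called (adjusted p = 0.00338, edgeR), while across all 6 livers it was not (adjusted p = 1.00). RepB-/- replicate 2, the library with the Y-linked reads, was 1 of the 2 RepB-/- libraries behind that call. With it alone left out of the 6 livers, the log2 fold change of *Hamp2* was -3.92 (adjusted p = 0.999, edgeR). The transcripts of *Hamp* and *Hamp2* share 0 windows of 100 bases. *Orm3*, a further orosomucoid gene, was at 0, 0.64 and 1.72 CPM in RepB-/- and 1.11, 9.94 and 8.40 CPM in WT, with overlap and an adjusted p of 1.00.

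The library labelled RepB-/- replicate 2, which held the Y-linked reads, was 1 of the 2 libraries that lacked *Hamp*; without it the log2 fold change was -4.78 and RepB-/- replicate 3 still held 0 counts. The 12 erythroid markers summed to 4514, 2250 and 1395 CPM in RepB-/- and to 1626, 314 and 261 CPM in WT. The highest sum was that of RepB-/- replicate 1, which did hold *Hamp*. The lowest was that of WT replicate 3, where *Hamp* was highest. Within each replicate number the RepB-/- library was the higher, although the genotypes overlapped. *Hba-a1*, an alpha globin, was at 718 and 466 CPM in RepB-/- replicates 2 and 3 and at 94.5 and 65.9 CPM in their WT counterparts, with an adjusted p of 1.00 across all livers. With replicate number as a block, 1 of the 10 erythroid markers tested was called, the red cell anion exchanger *Slc4a1* (log2 fold change 4.51 ± 0.26, adjusted p = 0.0174, against 1.00 without the block, edgeR), while *Hba-a1* had an adjusted p of 0.297. Of all 16080 genes tested, 8 were called with the block. *Slc4a1* was at 57.4, 1.47 and 2.22 CPM in RepB-/- and 2.74, 0.052 and 0.084 CPM in WT. The values of WT replicates 2 and 3 lay around the floor of 3 counts, which was 0.077 and 0.063 CPM there. The part of erythroid cells or transcripts in the *Hamp* difference was not tested.

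Genes that regulate hepcidin did not pass the test in liver. Of 28 genes listed 25 were in the table and 24 were tested, and 0 were called, with 0 at an unadjusted p under 0.05 and 0 called by DESeq2. *Bmp6*, the endothelial ligand that reports iron stores, was at 1.03, 1.81 and 0.41 CPM in RepB-/- and 1.69, 3.33 and 2.36 CPM in WT. *Id1*, a SMAD target, was at 11.6, 4.76 and 3.12 CPM against 15.4, 3.69 and 6.61 CPM. Hemojuvelin, the BMP co-receptor listed as *Hfe2*, was at 34.3, 70.1 and 48.1 CPM against 38.9, 100 and 103 CPM. In all 3 genes the genotypes overlapped. *Bmp6* and *Hfe2*, picked after their values were seen, were lower in RepB-/- within each of the 3 replicate numbers. The share of all genes that were so was not counted. With replicate number as a block the adjusted p of *Bmp6* and *Hfe2* was 0.728 and 0.742 (edgeR). The part of these genes in the *Hamp* difference was not tested. *Tmprss6*, the protease that cleaves hemojuvelin, had a log2 fold change of -0.01 ± 0.37, and the ferritin heavy chain (*Fth1*) one of 0.19 ± 0.38.

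The remaining lists also gave 0 calls in liver with edgeR and with DESeq2. The other positive acute phase genes numbered 25, all tested, with a median log2 fold change of -0.02 and 0 at an unadjusted p under 0.05; the most abundant were *C3*, *Fgb* and *Fga*, at -0.02, 0.06 and -0.08, with signs that turned when 1 library was left out. The 12 negative acute phase genes, which fall in inflammation, had a median of 0.33, and *Alb*, *Ahsg* and *Trf* were the most abundant, at log2 fold changes of 0.27, 0.53 and -0.06. Of 32 IL-6 and IL-1 signalling genes 29 were tested, with 1 at an unadjusted p under 0.05, *Il6ra*. Of 12 transcription factors 2 had an unadjusted p under 0.05, *Cebpb* and *Foxa2*, and of 13 receptors and scavengers of the acute phase proteins 1 did, the haptoglobin-haemoglobin receptor *Cd163*. *Cd163* was at 0.61, 7.92 and 3.99 CPM in RepB-/- and 19.1, 15.1 and 13.7 CPM in WT. All RepB-/- values lay below all WT values, as for 4.66% of the genes tested, and the adjusted p was 1.00 (edgeR).

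Replicate number was tested next, since it split several members more than genotype did. In the fit with genotype, 560 of 16080 genes (3.48%) differed by replicate number at an adjusted p under 0.05, and 0 of the 10 acute phase genes did, although 4 had an unadjusted p under 0.05, as did 21.7% of all genes tested. *Hp* and *Orm1* came closest, both at an adjusted p of 0.112, followed by *Crp* at 0.174 and *Saa4* at 0.221. The DESeq2 likelihood ratio test called 3 of the 10 and 14.7% of the genes it gave a p, the 3 being *Crp*, *Saa4* and *Orm1*, all lowest in replicate 1 of each genotype. *A2m*, the alpha-2-macroglobulin gene, showed the same split in the opposite direction, at 59.7 and 54.0 CPM in the replicate 1 libraries and at 0.155 to 1.25 CPM elsewhere.

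Set side by side per transcript length, with the TPM values the authors deposited, *Hp* was the highest of the 10 genes in every liver, from 1496 TPM in RepB-/- replicate 3 to 17711 TPM in WT replicate 1. It supplied 43.4% to 92.3% of the counts on the 10 genes, which together took 0.249% to 1.60% of each library. The second place changed with the library. *Orm1* held it in RepB-/- replicates 2 and 3 and in WT replicate 2, at 1911, 1106 and 1276 TPM. *Crp* held it in RepB-/- replicate 1 (187 TPM), *Lcn2* in WT replicate 1 (1835 TPM) and *Hamp* in WT replicate 3 (2095 TPM, against 1473 TPM of *Orm1*).

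Across the 6 liver libraries, the non-members whose log2 CPM was most like that of *Saa1* were *Eaf2*, *Phf20l1* and *Stkld1* (Pearson r = 0.985, 0.982 and 0.981), and those most like *Hamp* were *Rbks*, *Ralgapb* and *H2-DMb1* (r = 0.992, 0.992 and 0.990). These are the top 3 of 16080 genes over 6 points that share a split by replicate number, and are given as a description. *Phf20l1* ranged from 13.7 to 16.9 CPM, and *Eaf2* and *Stkld1* reached at most 0.42 and 0.46 CPM, so a close correlation did not mean a swing of like size.

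In MEFs, which are not hepatocytes, 5 of the 10 genes passed the filter on low counts and 3 rose in RepB-/-: *Saa3*, *Lcn2* and *Hp*. Of all 13306 genes tested there, 19.4% were called as higher and 39.1% in either direction, so 3 of 5 is read against a broad change. The biological coefficient of variation was 9.06%, and in simulated MEFs 90.6% of genes changed 2-fold were recovered. *Saa3* was at 199, 179 and 105 CPM in RepB-/- replicates 1, 2 and 3 and at 48.5, 52.8 and 53.2 CPM in WT. All RepB-/- libraries lay above all WT libraries, as for 26.5% of genes tested, with a log2 fold change of 1.64 ± 0.17 (3.12-fold, adjusted p = 1.38e-05, edgeR). The call held without each library in turn.

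*Hp* was at 21.6, 18.2 and 11.5 CPM in RepB-/- and at 11.3, 10.6 and 11.04 CPM in WT. The groups did not overlap, but RepB-/- replicate 3 was only 1.05-fold above the WT mean, and the log2 fold change was 0.64 ± 0.18 (adjusted p = 0.0141, edgeR). Without RepB-/- replicate 1 or 2 the adjusted p was 0.0797 or 0.0524. *Lcn2* was at 74.4, 59.3 and 22.7 CPM in RepB-/- and at 26.5, 23.5 and 30.1 CPM in WT. RepB-/- replicate 3 was below all 3 WT libraries, so the groups overlapped, and the log2 fold change of 0.96 ± 0.29 (adjusted p = 0.0173, edgeR) was not called by DESeq2 (adjusted p = 0.12). Leaving out RepB-/- replicate 1 or 2 or WT replicate 2 also lost the *Lcn2* call, at an adjusted p of 0.103, 0.0635 and 0.0563.

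**Figure D4:**
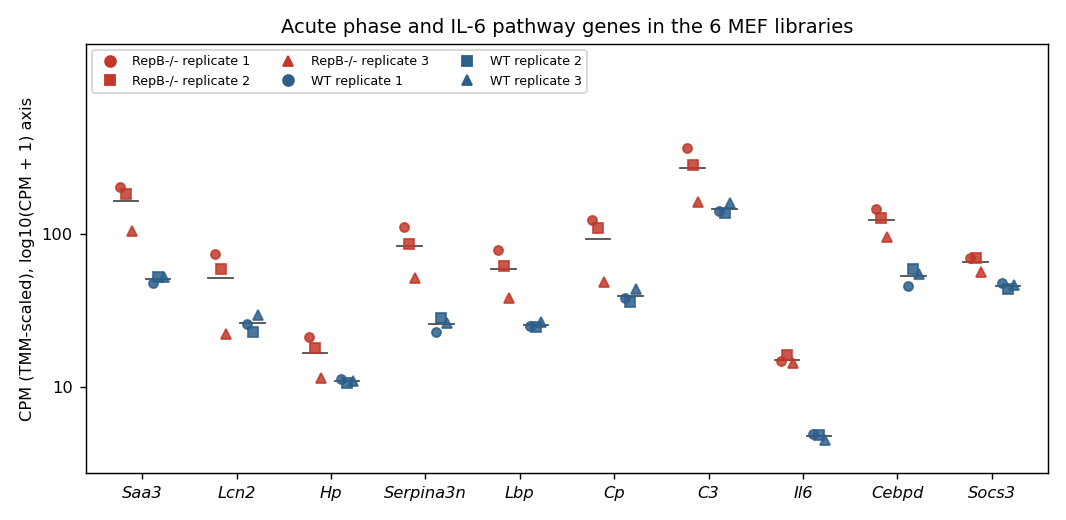
Level of the 3 called acute phase genes and of 7 other acute phase and IL-6 pathway genes in each MEF library, in TMM-scaled CPM on a log10(CPM + 1) axis; symbols give the replicate number, colours the genotype and bars the group mean of 3. RepB-/- replicate 3 was the lowest RepB-/- library for each gene shown and, for *Lcn2* alone among them, was below every WT library.

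The other members were close to absent from MEFs. *Saa1* held 30 to 43 counts in RepB-/- and 18 to 20 in WT (log2 fold change 0.52 ± 0.32, adjusted p = 0.225, edgeR), and *Orm2* 8 to 12 and 9 to 21 counts (-0.85 ± 0.43, adjusted p = 0.132). *Saa2*, *Saa4* and *Orm1* held at most 10 counts and were not tested. *Hamp* held 2 counts in 1 WT library and *Crp* 1 in each WT library, both at or under the floor of 3 counts, and both were at 0 in all RepB-/- libraries. By the FPKM values the authors deposited, *Saa3* was the highest of the 10 in every MEF library, at 38.6 to 73.2 FPKM in RepB-/- and 20.2 to 21.03 FPKM in WT, followed by *Lcn2* and *Hp*. The order of *Hp* and *Saa3* was therefore the reverse of that in 6 of 6 livers. The 2 tables were made separately, so no test was run across tissues.

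Other acute phase genes expressed in fibroblasts rose beside them. Of 25 other positive acute phase genes 11 were tested, 6 rose and 0 fell, where 19.4% of all genes tested rose. Their median log2 fold change was 0.74 against 0.00 over all genes. *Serpina3n*, a protease inhibitor, rose from 26.4 ± 2.68 to 83.2 ± 29.1 CPM (mean ± SD, n = 3; log2 fold change 1.65 ± 0.20, adjusted p = 3.98e-05, edgeR). *Cp* rose by 1.23 ± 0.23 on the log2 scale, *Lbp* by 1.20 ± 0.18, the interleukin 1 receptor antagonist *Il1rn* by 1.01 ± 0.19, complement *C3* by 0.85 ± 0.19 and the metallothionein *Mt1* by 0.73 ± 0.11. Of the 12 negative acute phase genes 4 were tested and 0 were called by edgeR, with 0 at an unadjusted p under 0.05; DESeq2 called 1.

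**Figure D5:**
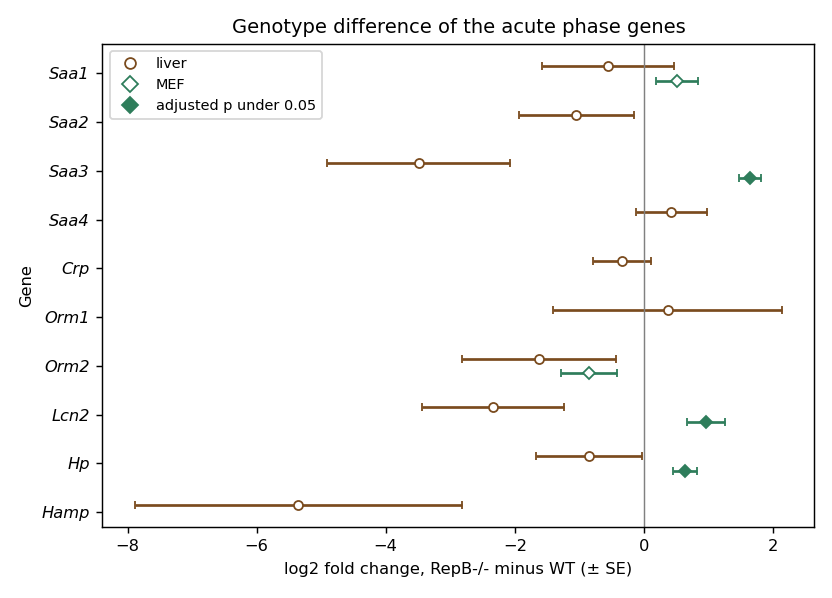
Log2 fold change of the acute phase genes, RepB-/- minus WT, with its SE, in liver (circles, 10 genes) and MEFs (diamonds, the 5 genes tested); filled symbols had an adjusted p under 0.05 in edgeR. The liver values of *Saa3* and *Lcn2* were below 0 and their MEF values above 0, and that of *Lcn2* in liver turned to 0.12 without WT replicate 1; the liver value of *Hp* turned to 0.41 likewise.

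Of the 32 IL-6 and IL-1 signalling genes 28 were tested in MEFs, and 17 rose and 4 fell (median 0.31). Among all genes tested there, 19.4% rose and 39.1% were called in either direction. The ligand gene *Il6* rose from 4.56, 4.45 and 4.09 CPM in WT to 15.03, 16.5 and 14.5 CPM in RepB-/- (log2 fold change 1.81 ± 0.14, adjusted p = 1.19e-06, edgeR), and the groups did not overlap. The receptor chains *Osmr*, *Lifr*, *Il6st* and *Il1r1* rose by 0.94, 0.75, 0.68 and 0.78 on the log2 scale, the kinase gene *Jak1* by 0.85 and *Stat3* by 0.31. *Socs3*, the feedback inhibitor that STAT3 switches on, rose by 0.50, and the NF-kB inhibitor *Nfkbia* by 0.39. The 4 that fell were the ligand *Lif* (-1.03), the specific IL-6 receptor *Il6ra* (-0.89), the NF-kB cofactor *Nfkbiz* (-0.74) and the adaptor *Traf6* (-0.50). The list thus held both inducers and inhibitors among the genes that rose.

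Of the 12 acute phase transcription factors 6 were tested in MEFs, and 4 rose and 0 fell, where 19.4% of all genes tested rose. *Stat3* and *Rela* are on both lists. *Cebpd* rose from 46.8, 59.8 and 55.8 CPM in WT to 144, 126 and 95.9 CPM in RepB-/- (1.16 ± 0.13, adjusted p = 2.14e-05, edgeR). *Cebpb* rose by 0.28 ± 0.08, without RepB-/- replicate 1 at an adjusted p of 0.0541, and *Cebpa* by 0.29 ± 0.09, a call that held only without WT replicate 1 when 1 library was left out (adjusted p of 0.0534 to 0.0937 without any other). The liver factors *Hnf4a* and *Foxa2* were at most 0.56 CPM in any MEF library and were not tested.

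Of the same 28 genes of hepcidin regulation and iron 23 were tested in MEFs, and 11 rose and 4 fell (median 0.22). Among all genes tested, 19.4% rose and 39.1% were called in either direction. Hepcidin itself was at the floor. The ferritin heavy chain *Fth1* rose by 0.51 ± 0.08, *Atoh8*, *Id1* and *Smad6* by 0.49, 0.38 and 0.34, and the transferrin receptor *Tfrc* by 0.39. Those that fell were *Bmp2* (-1.82), the erythroferrone gene *Erfe* (-0.83), *Smad7* (-0.52) and the ferritin light chain *Ftl1* (-0.43). The *Bmp2* call was lost without RepB-/- replicate 1 or 2 or WT replicate 1 (adjusted p at most 0.0621), and that of *Ftl1* without WT replicate 2 (0.0581). Of 13 receptors and scavengers 11 were tested, 2 rose and 5 fell (median -0.05), where 39.1% of all genes tested were called. Haem oxygenase 1 (*Hmox1*), which degrades haem taken up with haptoglobin or hemopexin, fell from 4249, 2576 and 2644 CPM in WT to 1215, 1457 and 1879 CPM in RepB-/- (-1.06 ± 0.18, adjusted p = 0.000518, edgeR). *Fcgr1*, a receptor that binds C-reactive protein, fell by 3.29 ± 0.44 on the log2 scale, and *Fcgr3* and *Tlr4* rose by 1.64 and 0.58.

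Some markers of other cells moved with genotype in MEFs as well, where 39.1% of all genes tested were called. Of 12 macrophage and Kupffer cell markers 4 were tested; *Lyz2*, *Adgre1* and *Csf1r* rose and *Cd68* fell. The 12 summed to 116 to 150 CPM in RepB-/- and 49.96 to 65.3 CPM in WT, of which *Lyz2* alone was 90.7 to 120 and 20.3 to 42.6 CPM. The Kupffer cell markers *Clec4f*, *Timd4* and *Vsig4* were at most 0.18 CPM. Neutrophil and myeloid precursor markers summed to 3.68 to 9.04 CPM, with *S100a9* at 0 in all 6 libraries, against 22.7 to 74.4 CPM of *Lcn2*. Of the 8 endothelial markers 4 were tested, *Pecam1*, *Cdh5* and *Kdr* fell and *Tek* rose, and the 8 summed to 20.6 to 22.3 CPM in RepB-/- and 30.2 to 37.1 CPM in WT. Erythroid markers summed to 0.72 to 1.17 CPM in RepB-/- and 1.79 to 3.76 CPM in WT, and hepatocyte markers to 0.46 to 0.62 and 1.05 to 4.16 CPM, with 0 of 12 hepatocyte markers tested by edgeR and 2 called by DESeq2. Of the 10 stellate cell and fibroblast markers 9 were tested, 3 rose (*Col1a1*, *Col3a1* and *Dcn*), 1 fell (*Acta2*) and 5 were not called, with a median log2 fold change of 0.19. The fibroblast matrix gene *Dcn* was, like *Saa3* and *Lcn2*, lowest in RepB-/- replicate 3 among RepB-/- libraries, at 72.0 CPM against 161 and 139 CPM, and its log2 fold change was 1.31 ± 0.22. The part of these markers in the *Saa3*, *Lcn2* and *Hp* differences was not tested.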

How the data were processed

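Counts from liver and MEFs were used, in 3 RepB-/- and 3 WT libraries of each (12 in all); the 6 brain libraries were not analysed here. Genotype and replicate number came from the library labels. By the paper's methods, total RNA was made into mRNA libraries, sequenced as paired ends, trimmed with Cutadapt and aligned with Hisat2; the submitters' processing notes instead name Trim Galore 0.4.1, STAR 2.7.0 and HTSeq 0.12.4 with no role. Which of these made the count tables, whether counting used strand, and the annotation are not given in the sources used here. The deposited tables give raw whole-number counts for each gene, with GRCm38 (liver) or GRCm39 (MEF) coordinates. The TPM (liver) and FPKM (MEF) columns the authors deposited were used only to order genes by level; the TPM values were not strictly proportional to the counts of a gene. Another 6 per-library columns were not used, nor were columns of the authors' own comparisons.

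Liver and MEF counts went into separate edgeR fits (edgeR 4.0.16, R 4.3.3, TMM scaling, filterByExpr defaults, quasi-likelihood test, Benjamini-Hochberg adjustment over all genes tested, threshold 0.05). The SE of a log2 fold change was worked back from its test, as the absolute log2 fold change divided by the square root of the F statistic. Replicate number in liver was tested with 2 degrees of freedom in a fit with genotype. Single values were compared by the exact two-sided permutation test over libraries, which cannot go below p = 0.1. Promoters and motifs were read from RefSeq windows, and identities came from Biopython 1.88. Python 3.11.15 produced the tables and plots. The fits were tested on simulated data. Precision was limited by counting only for genes of few counts, and 3 counts was taken as the floor.

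Liver libraries of the same replicate number deviated together from their genotype means (correlations 0.710, 0.361 and 0.365 over 16080 genes), so replicate numbers were used as a block in an alternative fit. Deviations from a group mean are tied to each other. Replicate 1 standing apart in both genotypes therefore also raises the correlations of replicates 2 and 3. Whether replicate 2 pairs with 2 and replicate 3 with 3 was not tested. The other alternatives were DESeq2 1.42.0, its size factors in edgeR, no filter on low counts, leaving out each library, replicates 2 and 3 alone and plain library totals. The genes named are the 10 members, in each list the genes past the threshold or else the 3 most abundant, with examples; *Hpx*, *Lbp*, *Cp*, *Marco*, *A2m*, *Bmp6*, *Id1*, *Hfe2*, *Slc4a1*, *Dcn* and the genes at an unadjusted p under 0.05 in liver were chosen after their values were seen. The members and the gene lists were chosen with earlier results of these data known.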

Additional observations from a re-analysis of the deposited data

How the results depend on the processing

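In liver, 0 of the 10 acute phase genes were called under every alternative. The number of all genes called was 6, and it was 80 with DESeq2, 0 with no filter on low counts, 2 in replicates 2 and 3 alone, and 0 to 4 when 1 library was left out; with no filter, *Hamp* had an adjusted p of 0.917. For replicate number the count went from 560 to 2484 with the DESeq2 likelihood ratio test, which called 3 members against 0, and to 189 without RepB-/- replicate 2. In MEFs 1 to 3 members stayed called when 1 library was left out, and 3956 to 5233 genes of all. The cause of these shifts was not tested.

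Several uncalled liver log2 fold changes changed sign. With replicate number as a block, that of *Orm1* was -0.88. In replicates 2 and 3 alone those of *Saa1*, *Saa3*, *Lcn2*, *Fga* and *Cebpa* were 0.33, 0.034, 0.13, 0.10 and 0.080. That of *Tmprss6* was 0.00057 with DESeq2 and 0.0017 with its size factors in edgeR. Leaving out 1 library gave ranges of -1.94 to 0.010 for *Saa1*, -0.15 to 0.83 for *Saa4*, -0.22 to 0.96 for *Orm1*, -2.82 to 0.12 for *Lcn2* and -1.32 to 0.41 for *Hp*, with WT replicate 1 the library behind the last pair. Without a change of sign they were -16.31 to -4.16 for *Hamp*, -4.05 to -0.36 for *Saa3*, -2.34 to -0.87 for *Orm2*, -1.98 to -0.49 for *Saa2* and -0.68 to -0.13 for *Crp*. The ranges were -0.14 to 0.091 for *C3*, -0.30 to 0.15 for *Fga*, -0.10 to 0.31 for *Fgb*, -0.077 to 1.39 for *Ahsg*, -0.40 to 0.22 for *Trf*, -0.15 to 0.62 for *Lifr*, -0.14 to 0.49 for *Il1rap*, -0.81 to 0.12 for *Cebpa*, -0.14 to 0.30 for *Hnf4a*, -0.046 to 0.42 for *Fth1* and -0.31 to 0.15 for *Tmprss6*.

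The block left 0 members called in liver (8 genes of all) and 3 in MEFs (5006 of all), and changed no member's call. In liver it added a call for the erythroid marker *Slc4a1* (4.51), which was around the floor in 2 of the WT libraries. In MEFs, libraries with the same number did not deviate together (correlations -0.011, -0.042 and -0.0035), so there they share only a number. Plain library totals moved 1 of 40 member means by more than the spread between replicates, that of *Hp* in WT MEFs, to 11.4 CPM. With a coefficient of variation of 51.2% in liver, a difference that missed the threshold was not shown to be absent.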
